A study of Caenorhabditis elegans with 2 samples.

Results

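MicroRNA genes were examined in a map of FLH-1 on the chromatin of Caenorhabditis elegans embryos, leaving out mir-51 to mir-56. The members were all nuclear genes of the Ensembl biotype miRNA outside that family, 255 of 46890 nuclear genes. FLH-1 was mapped by chromatin immunoprecipitation followed by sequencing (ChIP-seq), with an antibody against GFP, in 2 biological replicates of 1 group. The antibody label of both samples reads flh-1. Both replicates are of the strain OP702, which has the allele unc-119(tm4063) and, as wgIs702, a transgene that joins flh-1::TY1::EGFP::3xFLAG, tagged at the C-terminus, with the rescuing copy unc-119(+). Embryos came from bleached adults, were labelled as mixed stage with an age of 2 hours, and were whole organisms of pooled sexes from a stable transgenic line. The tagged gene is a transgene, and the labels name no deletion of the worm's own flh-1, so an untagged protein can be present. There is no second group, hence no comparison between conditions. The peak lists hold no expression values with which to check the stage.

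MicroRNAs are short RNAs cut from hairpin precursors. They pair with messenger RNAs through the seed, bases 2 to 8 of the mature strand, and lower translation and RNA stability. Genes with the same seed form a family and can share targets. In the worm, some microRNAs set the timing of larval development (lin-4 and let-7), and others are needed in the embryo itself (the mir-35 family). FLH-1 carries a FLYWCH zinc finger and is known, with FLH-2, for repressing lin-4, mir-48 and mir-241 in embryos.

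Each member was scored by the strongest entry of a list with its summit inside the annotated gene, here called the hairpin, or up to 1000 bp upstream of it. The lists were the pooled list of 30000 entries, the list of 30000 entries of each replicate, and the optimal set of 371 entries left by the irreproducible discovery rate (IDR) threshold, a comparison of ranks between replicates. Signal values are the authors' own, from their peak caller, and served to order entries inside 1 list and not to compare lists; rank 1 is the strongest. The optimal set was identical to the 371 strongest pooled entries, and its weakest entry had a signal value of 90.3. Read depth is unknown, and intervals on shares treat genes as independent although neighbours can share an entry.

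The mature sequences of the leading members and of the known FLH-1 targets are printed first, because families are named by the seeds they share. They were read from the RefSeq annotation and genome of WBcel235, the assembly also called ce11, which listed a mature product for 254 of the 255 members. Seeds are in capitals. RefSeq names the products of a hairpin a and b, in order along the hairpin. The b products of mir-90 and mir-62, both among the strongest members, share a seed, and mir-50, not printed, has it too.
mir-90 b: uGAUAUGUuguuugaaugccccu
mir-62 b: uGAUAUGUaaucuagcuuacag
From the family of mir-58.1 and mir-80, related to fly bantam, 5 genes follow; the seed of mir-58.1 is GAGAUCG and that of the other 4 printed is GAGAUCA.
mir-80 b: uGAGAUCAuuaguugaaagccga
mir-81 b: uGAGAUCAucgugaaagcuagu
mir-82 b: uGAGAUCAucgugaaagccagu
mir-58.1 b: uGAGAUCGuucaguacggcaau
mir-58.2 b: aGAGAUCAaccauugagauccaa
The mir-64 family holds a cluster of 4 neighbouring hairpins and the distant mir-63; sequences of 4 of these 5 genes are given.
mir-229 a: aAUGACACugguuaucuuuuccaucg
mir-64 a: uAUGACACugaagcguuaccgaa
mir-66 a: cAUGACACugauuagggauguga
mir-63 b: uAUGACACugaagcgaguuggaaa
The timing microRNAs printed here have the lin-4 seed or the let-7 seed, whereas mir-793, also in the timing list used below, has GAGGUAU.
lin-4 a: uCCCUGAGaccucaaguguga
mir-237 a: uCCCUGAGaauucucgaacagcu
let-7 a: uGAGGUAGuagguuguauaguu
mir-48 a: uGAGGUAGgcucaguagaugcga
mir-241 a: uGAGGUAGgugcgagaaauga
mir-84 a: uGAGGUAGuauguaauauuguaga

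Optimal FLH-1 entries were few at microRNA genes outside the mir-51 family, as they were at nuclear genes in general. Only mir-90 and mir-4936 carried an optimal entry in the window, 2 of 255 genes (0.784%, exact 95% interval 0.0951 to 2.80). The same window, 1000 bp upstream and 95 bp (the median hairpin length) downstream of the 5′ end, held an optimal entry at 1.2% of all nuclear genes and at 1.74% of those that are not piRNA genes. The members' share lay near this background. In replicate 1 alone 6 members (2.35%) had one of the 371 strongest entries, with a background of 1.17% of all nuclear genes and 1.67% without piRNA genes, and in replicate 2 alone 3 members (1.18%), with 1.17% and 1.72%. In the same lists 146 of 612 tRNA genes (23.9%), 52 of 346 snoRNA genes (15%) and 2 of the 6 mir-51 family genes had an optimal entry; these differences were not tested.

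The first of the pair, mir-90, lies at III, 8873987 to 8874084 on the minus strand, inside an intron of K01F9.2 on the same strand. Its entry (III, 8874136 to 8874599) had a pooled signal value of 111 at rank 244, with the summit upstream of the hairpin, at an offset of -284 bp from its 5′ end. The strongest entry in the window had a signal value of 55.1 (rank 127) in replicate 2 and 58.3 (rank 481) in replicate 1. The summits differed between the lists: at offsets of -320 bp in replicate 2 but at -412 and -176 bp in replicate 1, where 2 entries with signal values of 58.3 and 53.4 stood on either side of the pooled summit. No replicate 1 summit was therefore within 100 bp of the pooled one, the distance used here for a shared site.

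The other, mir-4936 (III, 3249151 to 3249260, plus strand), is intergenic. Its signal value was 103 at rank 281, and the replicates gave it signal values of 70.1 (rank 300) and 36.9 (rank 310), nearly the same rank, with summits 16 and 4 bp from the pooled one. The summit was inside the hairpin, 48 bp from its 5′ end, and also upstream of the protein-coding gene nduf-9, at -624 bp from its 5′ end, so the entry cannot be given to 1 of the 2 genes.

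Just below the optimal limit stood mir-80, with a signal value of 87.6 at rank 405. This bantam-family microRNA, known for a part in the response to diet, is intergenic (III, 8865270 to 8865367, minus strand). The replicates placed its site within 13 and 4 bp of the pooled summit, with signal values of 51.6 (rank 768) and 30.7 (rank 540), so it was in the first 1000 of each list. The genes mir-80 and mir-90 lie in 1 stretch of 8815 bp on the same strand of chromosome III, with mir-238 between them. The entry at mir-238 was weak, with a signal value of 28.0 at rank 20876, so the stretch had a strong entry at each end and a weak one between.

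**Figure D1:**
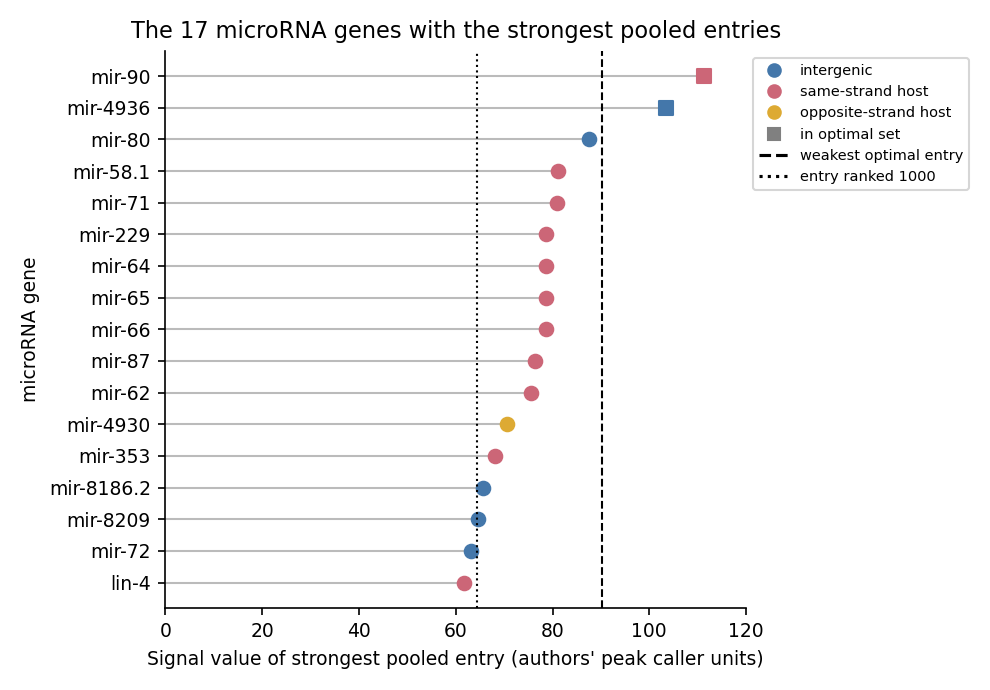
Signal value of the strongest pooled entry (horizontal axis, units of the authors' peak caller) for the 17 members with the highest values; colour gives the position against protein-coding genes and squares mark the optimal set. Only mir-90 (111) and mir-4936 (103) lie right of the dashed line at 90.3, the weakest optimal entry, and lin-4 (61.7) lies just left of the dotted line at 64.4, the entry ranked 1000.

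With the 2 optimal members included, 15 members (5.88%), at 12 distinct entries, had a pooled entry among the first 1000, compared with 2.46% of all nuclear genes and 3.49% of those other than piRNA genes. Requiring a replicate summit within 100 bp in each list left 8 members (3.14%), at 8 distinct entries, compared with 2.15% of all nuclear genes and 3.05% of those other than piRNA genes. The 8 were mir-4936, mir-80, mir-58.1, mir-71, mir-87, mir-4930, mir-8186.2 and mir-8209. Of the other 7, 4 share 1 entry (the mir-64 cluster) and the rest are mir-90, mir-62 and mir-353. With 250 bp allowed, 14 members met the rule, but no share over all nuclear genes was taken at that distance. Members nearest the limit were mir-8186.2 and mir-8209 at ranks 926 and 978 inside it, and mir-72 and lin-4 at ranks 1090 and 1215 outside.

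The strongest of these below mir-80 was mir-58.1 (IV, 3233254 to 3233350, in an intron of phkb-1 on the same strand). Its 2 pooled entries had signal values of 81.1, with the summit 2 bp before the hairpin, and 74.9, with an offset of -218 bp. Replicate 1 had both, at ranks 377 and 349, whereas the strongest in replicate 2 ranked at 2570. The entry was thus stronger in the list of replicate 1 than in that of replicate 2.

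A like difference was seen at mir-71, a microRNA known to extend adult lifespan, which lies in an intron of ppfr-1. It had a pooled signal value of 80.8, and 63.5 (rank 374) in replicate 1 and 21.1 (rank 2761) in replicate 2. At mir-87, in an intron of kup-1, the signal value was 76.4, and the strongest entries of the replicates ranked at 520 and 1660, the first of them at an offset of -59 bp where the pooled summit was at -197 bp. For mir-62, an intron of ugt-50 that is itself spliced out as the precursor (a mirtron), the order was the opposite, with rank 685 in replicate 1 and 326 in replicate 2. It too had 2 pooled entries, with signal values of 75.5 and 74.2 and offsets of -435 and -227 bp, and the replicate 2 summit fell between them at -265 bp.

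The cluster of mir-229, mir-64, mir-65 and mir-66 in an intron of gcn-1 shared 1 entry (III, 2172016 to 2172479) with a signal value of 78.6. Its summit was upstream of the whole cluster, at an offset of -204 bp from mir-229 and -860 bp from mir-66. The site ranked at 359 in replicate 1, 4 bp from the pooled summit; in replicate 2 the strongest summit, at rank 731, lay at an offset of -17 bp from mir-229. These 4 genes count as 4 members but as 1 site. The fifth gene with this seed, mir-63 on X, had no entry in any list.

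At mir-353 the pooled summit (signal value 68.1, rank 819) was at an offset of -949 bp from the hairpin and at -190 bp from the start of its host, the ribosomal protein gene rpl-24, and lay within the promoter of rps-10 as well. The site ranked at 646 in replicate 1; the strongest replicate 2 entry, at rank 8095, was elsewhere in the window (-292 bp). The entry of mir-354, hosted by rps-20, was similarly placed, with an offset of -833 bp and a summit in the promoters of rps-20 and ekl-4. Promoters were taken as the 1000 bp before and the 200 bp after the 5′ end of a protein-coding gene.

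Sequence at the summits of the leading members is shown next, with that of mir-48 and mir-241, to let the sites be compared by eye and by 5 short words counted in every entry. Windows of 50 bp to each side of the pooled summit are given on the plus strand of WBcel235. Capitals mark the word GTTCGA, the word TTGCAA, the word GCGCGC, the word GGCGCC and the word TGCGTC on either strand, and in the mir-4930 window the first 11 bases of the mature microRNA.
mir-90 (chrIII:8874318-8874418): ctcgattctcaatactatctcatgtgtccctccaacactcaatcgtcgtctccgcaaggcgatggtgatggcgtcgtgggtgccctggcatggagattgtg
mir-80 (chrIII:8865563-8865663): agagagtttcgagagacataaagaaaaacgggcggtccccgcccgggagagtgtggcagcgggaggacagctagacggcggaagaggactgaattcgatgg
mir-229 (chrIII:2172198-2172298): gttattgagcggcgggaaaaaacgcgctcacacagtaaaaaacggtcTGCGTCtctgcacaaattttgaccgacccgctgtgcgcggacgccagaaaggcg
mir-4930 (chrIV:2398472-2398572): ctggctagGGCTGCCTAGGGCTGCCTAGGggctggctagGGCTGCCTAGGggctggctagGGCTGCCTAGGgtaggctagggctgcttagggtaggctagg
mir-48 (chrV:14364626-14364726): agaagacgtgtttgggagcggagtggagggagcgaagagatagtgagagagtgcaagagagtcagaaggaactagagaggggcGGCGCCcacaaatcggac
mir-241 (chrV:14366690-14366790): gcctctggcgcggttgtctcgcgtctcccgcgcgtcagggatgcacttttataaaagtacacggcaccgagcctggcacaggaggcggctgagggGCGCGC

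None of the 12 distinct entries at members in the first 1000 held GTTCGA, part of the internal promoter element of tRNA genes. It was in 13.1% of the 993 nuclear pooled entries in the first 1000 and in 3.92% of all nuclear pooled entries. Of all 90 distinct entries at members 1 held it (1.11%). With 12 entries such shares are coarse, and differences in them were not tested. TGCGTC was in 2 of the 12, at the mir-64 cluster and mir-8209, compared with 7.25% of the 993 entries and 3.44% of all. GCGCGC was in 1 of the 12, at mir-71 (7.25% of the 993, 1.59% of all), and neither TTGCAA nor GGCGCC was in any (6.65% and 2.92% of the 993, 4.59% and 1.45% of all). GGCGCC stood in the window of the weak mir-48 entry and GCGCGC in that of mir-241. At none of the 108 members with a pooled entry did the summit lie 100 bp or less from a gene for tRNA or snoRNA.

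The 12 windows had a mean GC content of 51.3% (SD 7.63, n = 12 entries). That of all 90 distinct entries at members was 45.9% (SD 8.82) and that of all 29993 nuclear pooled entries 41.1% (SD 8.89). Entries of like rank were closer: the 993 nuclear entries in the first 1000 had 49.0% (SD 8.85) and the 364 nuclear optimal entries 51.1% (SD 7.62). The lowest GC content among the 12 was 37.6%, at mir-4936, and the highest 67.3%, at mir-4930. The window of mir-4930, in an intron of Y38F2AR.10 on the opposite strand, is a tandem repeat in which the first 11 bases of the mature microRNA occur 4 times. Its signal value was 70.7, with ranks of 986 and 2378.

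Weaker entries were common, as they are at other genes. A pooled entry of any strength lay in the window of 108 members (42.4%, exact interval 36.2 to 48.7), and 147 had none. The same window held one at 25.6% of all nuclear genes, at 34% of those other than piRNA genes and at 31.5% of protein-coding genes. Genes of the biotype ncRNA, which also are short and partly lie inside other genes, had 40.6%. Of the members 98 had an entry in replicate 1 (background 25.6% over all nuclear genes and 33.7% without piRNA genes), 95 in replicate 2 (26.3% and 33.2%), 57 in both lists and 115 in none of the 3 relaxed lists.

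Signal values of the 108 members ran from 24.0 to 111 with a median of 37.3 (exact interval of the median 33.8 to 43.3), compared with 32.1 for the whole pooled list and a floor of 23.4. They rested on 90 distinct entries, 10 of which served 2 or more members. The longest shared stretch was the mir-35 to mir-41 cluster. Of the 90 entries, 38 ranked in the weaker 15000 of the list. Among the 108 members, the pooled site had a partner within 100 bp in both replicates at 32 (29.6%), in replicate 1 only at 44, in replicate 2 only at 21 and in neither at 11. Over the 25 distinct entries with both partners, log2 signal values of the replicates were correlated with r = 0.42 (Pearson) and rho = 0.298 (Spearman). This describes entries chosen through the pooled list, which share their libraries.

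**Figure D2:**
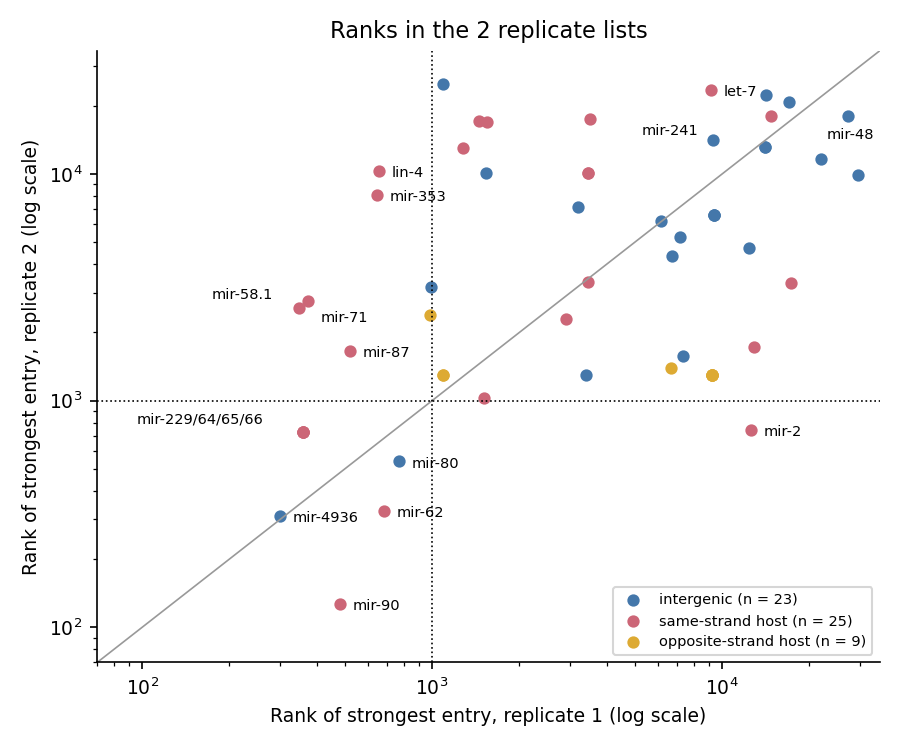
Rank of the strongest entry in replicate 1 (horizontal) and replicate 2 (vertical), both on log scales, for the 57 members with an entry in each list; the grey line marks equal ranks and dotted lines mark rank 1000. The 8 genes below rank 1000 in both are mir-4936, mir-90, mir-80, mir-62 and the 4 genes of the mir-64 cluster, which share 1 point, while lin-4 (655 and 10341) lies far above the line.

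Members inside protein-coding genes had an entry more often than intergenic ones. Of 149 intergenic members 50 had a pooled entry (33.6%, exact interval 26.0 to 41.7), of 76 in a host gene on the same strand 42 (55.3%, 43.4 to 66.7), and of 30 in a host on the opposite strand 16 (53.3%, 34.3 to 71.7). Intergenic members were also lowest in replicate 1 (32.2%, 50% and 40%) and in replicate 2 (30.9%, 46.1% and 46.7%). No test of the difference was made, and the interval of the opposite-strand class overlaps that of the intergenic class. With each shared entry counted once, the shares were 30.3%, 52.1% and 41.7%.

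Genes of the biotype ncRNA had 39.5% (intergenic), 43.9% (same-strand host) and 40.7% (opposite-strand host), a narrower range. Hairpins lay wholly in introns in 67 of the 76 same-strand members and 27 of the 30 opposite-strand members. Median signal values were 36.2 in intergenic members, 39.1 in same-strand and 52.5 in opposite-strand members. Of the 16 opposite-strand genes, the 7 genes mir-35 to mir-41 share 1 entry, so that the 16 rested on 10 entries. Of the 8 members that met the partner rule 4 were intergenic, 3 lay in a same-strand host and 1 in an opposite-strand host.

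**Figure D3:**
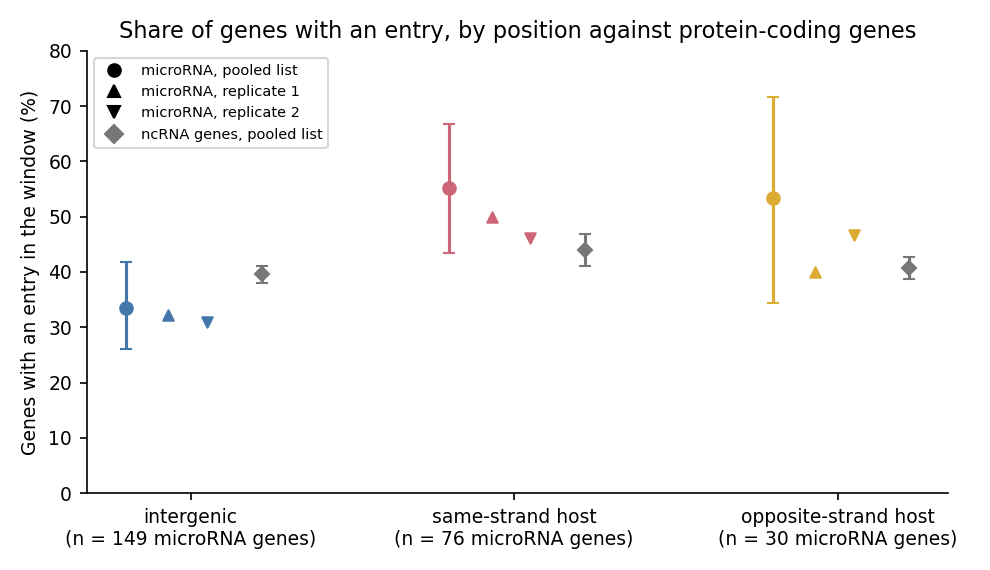
Percentage of genes with an entry in the window (vertical axis) by position against protein-coding genes; circles with exact 95% intervals are microRNA genes in the pooled list, triangles the replicate lists, and grey diamonds ncRNA genes. Intergenic microRNA genes had 33.6% and those in same-strand hosts 55.3% in the pooled list, against 39.5% and 43.9% for ncRNA genes.

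Counted by member, the summit lay more often within 250 bp upstream of the hairpin than at the far end of the window. Of the 108 members 9 had the summit inside the annotated gene, 33 within 250 bp upstream, 26 at offsets from -500 to -251 bp, 20 from -750 to -501 bp and 20 from -1000 to -751 bp; the median offset was -361 bp. By annotation 49 summits were intergenic, 43 in introns of protein-coding genes, 12 in coding exons and 4 in UTRs. A promoter of a protein-coding gene held the summit at 17 members (15.7%), and at 91 it lay elsewhere. These are counts of members and not of distinct entries. Of the 108 members 28 share their entry, and a shared summit can fall in several of these ranges. That of mir-35 to mir-41 had offsets from -300 bp (mir-35) to -1000 bp (mir-41). Summit positions in the same window were not taken for other genes, so nearness to the hairpin cannot be read as particular to microRNA genes. The share over all pooled entries was not taken either, so no difference from other entries can be read from these counts. Where microRNA transcripts start was not measured.

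**Figure D4:**
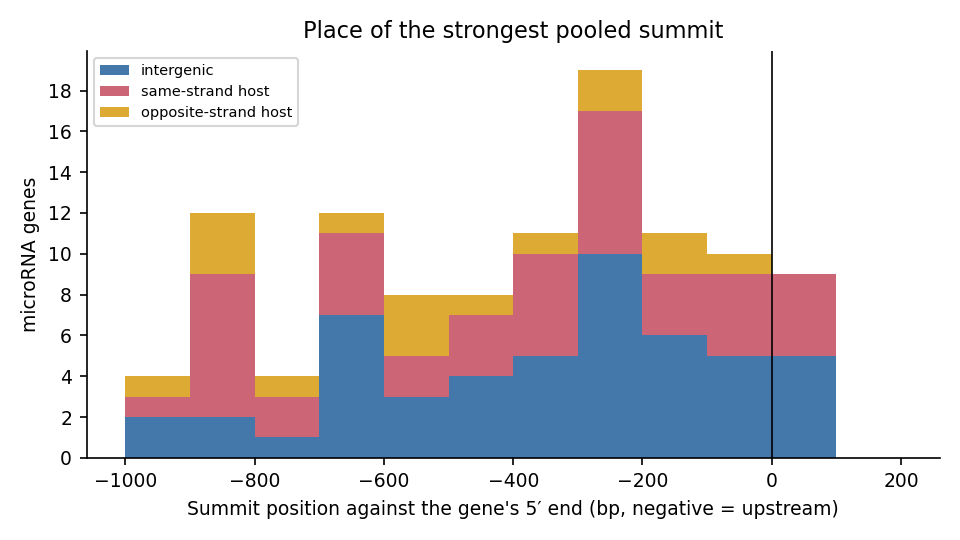
Number of members (vertical axis) by the position of the strongest pooled summit against the gene's 5′ end, in bins of 100 bp, coloured by position against protein-coding genes. Of the 108 members 33 had the summit within 250 bp upstream and 20 had it at offsets from -1000 to -751 bp.

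Among the timing microRNAs lin-4 had the strongest entry. Those with a pooled entry had a median signal value of 38.9, beside 37.3 for all members with one. Of 9 listed genes 6 had a pooled entry, none was in the first 1000, and mir-237, mir-793 and mir-795 had none. Over all members 42.4% had a pooled entry and 5.88% had one in the first 1000. For nuclear genes other than piRNA genes the shares were 34% and 3.49%. The lin-4 gene, which represses lin-14 and lin-28 to end early larval fates, lies in an intron of F59G1.4 (II, 5902254 to 5902347, plus strand). It had 2 pooled entries of almost the same signal value, 61.7 at an offset of -669 bp and 61.6 at -322 bp. Replicate 2 had a summit within a few bp of each, at offsets of -668 and -318 bp but with signal values of 14.4 and 14.9 (ranks 11516 and 10341). Replicate 1 had 1 entry, with a signal value of 53.5 (rank 655), with its summit between the others at -465 bp. The 2 replicates thus showed entries upstream of lin-4 in the same stretch, strong in the list of replicate 1 and weak in that of replicate 2.

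Of the let-7 relatives, which repress hbl-1 in larvae, mir-84 had a signal value of 40.7 at rank 7125 with no entry in replicate 2. The values were 37.1 for mir-241 (rank 9760, offset -457 bp) and 24.9 for mir-48 (rank 26748, offset -167 bp), near the floor of the list. For let-7 itself, which represses lin-41, the annotated gene spans 1732 bp, and the stronger of its 2 pooled entries (signal value 27.9, rank 21032) had its summit at an offset of -821 bp from that gene but of -1887 bp from the mature microRNA. The weaker (signal value 24.1, rank 28560) was inside the annotated gene at -735 bp from the mature microRNA, and the strongest replicate 1 entry (rank 9194) was 3 bp from it. The mir-48 site had a partner in replicate 2 (rank 25928, 9 bp away) and none in replicate 1, and the mir-241 site had one in replicate 1 (rank 9293, 11 bp away) and none in replicate 2. At mir-794 the signal value was 41.6, again with no entry in replicate 2.

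Among families active in embryos, the 8 mir-35 family genes all had an entry, but only 2 distinct ones. A pooled entry lay at 42.4% of all members and at 34% of nuclear genes other than piRNA genes. The 7 genes mir-35 to mir-41, which are needed for embryonic development and are transcribed as a cluster, shared an entry with a signal value of 53.0 at rank 2384, its summit 300 bp upstream of mir-35. Replicate 2 ranked it at 1293 and replicate 1 at 9264, both within 15 bp of the pooled summit. Replicate 1 had a stronger entry, of rank 1088, inside the mir-40 hairpin, 74 bp from its 5′ end, and the pooled list had its counterpart with a signal value of 51.9. The last gene of the family, mir-42, shared an entry with mir-43 and mir-44 (signal value 44.8, rank 4878).

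The bantam family, whose loss reduces body size, had 7 of 8 listed and annotated genes with an entry, 2 of them in the first 1000 (mir-80 and mir-58.1). The others were far weaker, from 26.0 at mir-2209.1 and mir-2209.3 to 35.2 at mir-82. For scale, 42.4% of all members had a pooled entry and 5.88% had one in the first 1000. The shares were 34% and 3.49% of nuclear genes other than piRNA genes. The name mir-1834 was not found in the annotation, and mir-58.2 had no pooled entry. Seeds differ inside the list, and the b products of mir-2209.2 (GAGAUGA) and mir-2209.3 (AAAGACC) lack GAGAUCA. The seed GAGAUCA is in 6 members, among them Y73B6A.17, which is not in the list and had no pooled entry. Of these 6 members 4 had a pooled entry, 1 of them in the first 1000. Genes with this seed thus differed in strength. The 3 genes with the seed GAUAUGU also differed, with signal values of 111 at mir-90, 75.5 at mir-62 and 40.5 at mir-50 (rank 7199), whose site had no partner within 100 bp in either replicate. Each lies in an intron of a same-strand host.

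None of the smaller families below had an entry in the first 1000, where 5.88% of all members had one. Their counts stand beside a pooled entry at 42.4% of all members and at 34% of nuclear genes other than piRNA genes. The mir-44 and mir-2 families each had 4 of 4 genes with an entry, led by mir-45 (45.0) and mir-2 (50.2, rank 746 in replicate 2 but 12638 in replicate 1), which stands in an intron of ppfr-1 like mir-71. In the mir-72 family as listed 3 of 3 had one, led by mir-72 (63.1). Its seed, GGCAAGA, is in 6 members, among them mir-266, mir-8187 and mir-8188, which the list leaves out. Of these 6 members 4 had a pooled entry, and mir-266 and mir-8188 had none. The mir-238 family had 3 of 3, led by the neighbours mir-239.1 and mir-239.2 (40.0). In the mir-75 family mir-79 had a signal value of 58.15, with rank 828 in replicate 1 and no entry in replicate 2, and mir-75 had no pooled entry. The value of mir-232 was 27.1, and mir-357, mir-251 and mir-252 had no pooled entry.

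Of 15 microRNAs known mainly from particular tissues or cells 5 had an entry, a share near the 34% of nuclear genes other than piRNA genes. They were mir-90, mir-71, mir-124 of sensory neurons (54.6, ranks 1448 and 17186), mir-1 of muscle (37.8, replicate 1 only) and mir-57 of posterior cells (33.9, replicate 1 only). The 10 others, with no pooled entry in the window, were lsy-6, which sets left-right asymmetry of taste neurons, mir-228 of glia, mir-34, mir-235, mir-240, mir-273, mir-59, mir-786, mir-791 and mir-83. An unlisted site in a relaxed list says only that no entry was among its 30000.

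**Figure D5:**
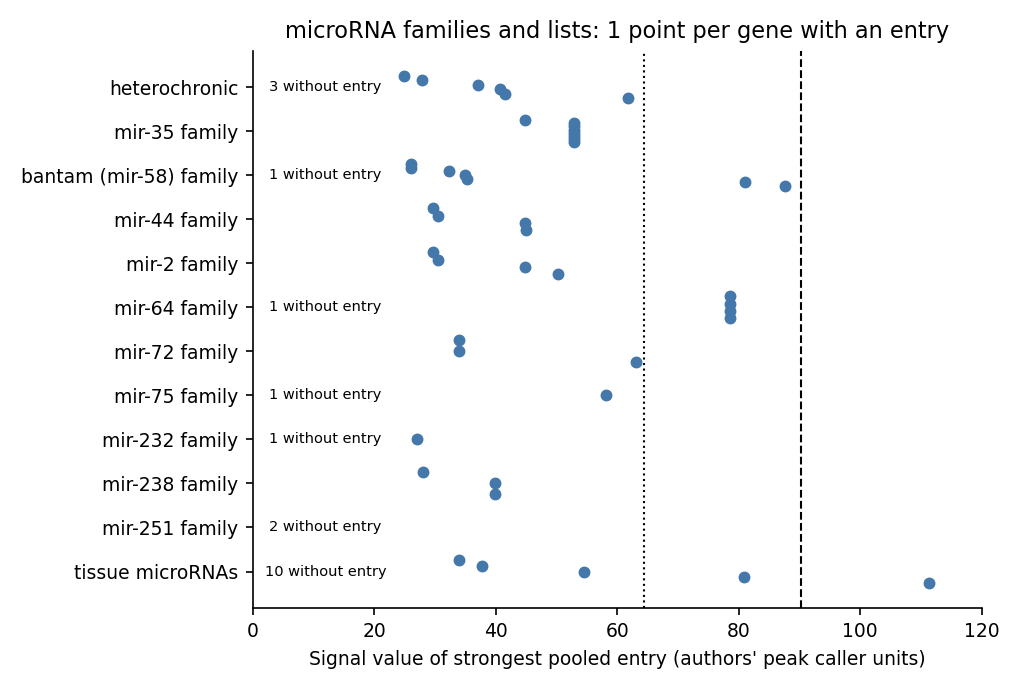
Signal value of the strongest pooled entry (horizontal axis) for the genes of each family or list, 1 point per gene, with the number of genes lacking an entry written at the left; the dashed line is the weakest optimal entry (90.3) and the dotted line the entry ranked 1000. Bantam-family values run from 26.0 to 87.6, the 4 genes of the mir-64 cluster share 78.6, and mir-35 to mir-41 share 53.0.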

How the data were processed

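Peaks were analysed in 2 replicates of 1 group, and replicates 1 and 2 were taken from the labels. The authors deposited narrowPeak lists for ce11, 3 of 30000 entries each (replicate 1, replicate 2, pooled) and the optimal IDR set of 371. Text deposited with the samples says that entries were called with a control, which was not analysed here. Which aligner, caller and IDR cut-off were used is not given in the sources used here. Column 7, the deposited signal value, was used to rank entries within a list. The deposited −log10 q value was not used for ranking, since it has a ceiling shared by all optimal entries. The deposited summit offset gave the summit. No depth is known from these lists.

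Genes came from Ensembl release 115 (WBcel235, the same assembly as ce11) and symbols from RefSeq by WormBase identifier (46881 of 46890 nuclear genes). A host is a protein-coding gene that overlaps the hairpin; a same-strand host had precedence. The scoring was tested on simulated entries. Python 3.11.15, pandas 2.3.3 and scipy 1.17.1 were used; intervals are exact (Clopper-Pearson), cover counting error only, and that of the median is by binomial order statistics. With 1 group no test was run.

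Named genes were the members with an optimal entry, the 15 strongest, the timing microRNAs, and in each family the strongest and the unscored ones, besides 2 on each side of rank 1000. The genes mir-354, mir-50, mir-238, mir-59, mir-2218.1 and mir-4932, further members of shared clusters, and the words searched were added after their values had been seen. The members, lists and tests were chosen with earlier results of these data known. Alternatives were other windows, interval overlap, each replicate alone, other rank limits and host definitions.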

Additional observations from a re-analysis of the deposited data

How the results depend on the processing

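No paired analysis was possible because there is only 1 group. The 2 members with an optimal entry remained 2 by count with 500 bp upstream, with the 5′ window, with interval overlap, as distinct entries and without entries at tRNA or snoRNA genes; the count was 3 with 2000 bp upstream and 0 in the stronger part of the optimal set. With a replicate left out, which leaves the other replicate's list and its 371 strongest entries, it was 3 to 6 (background 1.17% in either list). The 8 members in the first 1000 with partners became 4 in the first 500 and 14 with partners within 250 bp, and 11 to 16 with a replicate left out, where no partner can be asked for. Members with an entry numbered 77 with 500 bp, 149 with 2000 bp and 95 to 98 with a replicate left out. Shares over all nuclear genes were not taken for the other windows, rank limits or partner distance. Nor were they taken for the first 1000 of a replicate list, so these counts have no background. The median signal was 16.96 to 28.17 in replicate lists, whose scale differs by construction. Shares by class with 500 bp were 25.5% (intergenic), 39.5% (same strand) and 30% (opposite strand), and the intergenic share with 2000 bp was 53.7% (same strand 64.5%, opposite 66.7%); intergenic members were lowest in each. With a replicate left out these shares were 30.9% to 32.2%, 46.1% to 50% and 40% to 46.7%. The windows of classes, the replicate values of classes and the count of distinct entries by class were added after seeing the data. Depth is unknown, so a gene without an entry cannot be called unbound.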

Other observations

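Shares of members with a pooled entry varied by chromosome, and the values are given without a test. On chromosome III 20 of 27 members had one (74.1%, exact interval 53.7 to 88.9), where all nuclear genes of that chromosome had 40.7%. These 20 members rested on 16 distinct entries, and the interval treats them as separate genes. The members' share was also above that of all nuclear genes on I (18 of 33, 54.5%, beside 39.0%) and II (25 of 49, 51.0%, beside 35.0%). The same held on IV (13 of 47, 27.7%, beside 13.6%) and V (9 of 28, 32.1%, beside 27.1%). The shares of all nuclear genes include piRNA genes, of which 8.47% had a pooled entry over all chromosomes. No share without piRNA genes was taken by chromosome. On IV, which holds 19704 of the nuclear genes, the members therefore cannot be said to lie above genes other than piRNA genes. On X the share was 23 of 71 (32.4%, interval 21.8 to 44.5), where all genes had 35.9%, and none of these 71 was among the 8 members in the first 1000 with partners in both replicates (upper limit of the exact interval 5.06%), where 4.12% of all nuclear genes on X met that rule.

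Some members stood out in replicate 2 alone. The entry of mir-2218.1 ranked at 815 there, and the pooled entry at this site at 15523. That of mir-4932 ranked at 822, at an offset of 58 bp inside the hairpin, whereas its pooled entry (rank 20133) was at another site, at -880 bp. Neither window had a replicate 1 entry. With the window widened to 2000 bp, 1 further member, mir-59, gained an optimal entry (signal value 92.2), at an offset of -1580 bp from the hairpin and of -139 bp from the 5′ end of the protein-coding gene znf-207.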
